A study of Mus musculus with 36 samples.

Results

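The 54 genes described here were set apart by higher means in rods of postnatal days 10 and 14 than in rods of days 2 and 4 and in adult rods of day 28. At days 5 and 6, which the choice did not use, 15 of them were above their P10 and P14 mean at P5 and 2 at P6. The choice favours a high P10 and P14 mean, so these counts are a description only. They were picked from 15289 genes by their own values in rods. A member had a mean of at least 10 CPM over P10 replicates 1 to 3 and P14 replicates 1 and 2 (5 libraries), where P10 is postnatal day 10. That mean also had to be at least 3 times the mean of the 4 libraries of P2 and P4 and at least 3 times the mean of the 4 libraries of P28. CPM here is the authors' normalized CPM, an abundance scaled by library, whose column sums ran from 719752 to 2277242 and are not equal between libraries. The values that chose the genes are given as a description only. P5 rods, P6 rods, P10 replicate 4, P14 replicate 3 and all cultured cells took no part in the choice.

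The study asked how far fibroblasts can be turned into photoreceptor-like cells by chemicals, and RNA sequencing was read in 33 libraries of mouse cells. All came from a strain carrying Nrl-GFP, a fluorescent reporter under the promoter of Nrl, the factor that directs cells to the rod fate, and all were sorted by promoter reporter expression. The cultured groups were MEF, embryonic fibroblasts at passage 2 (n = 3), cells under 5 chemicals in induction medium at day 5 and day 8 (RI-d5 and RI-d8, n = 3 each), and reprogrammed cells at day 11 (CiPC, n = 3). Rods were isolated from the retina at P2 (n = 2), P4 (n = 2), P5 (n = 3), P6 (n = 3), P10 (n = 4), P14 (n = 3) and P28 (n = 4). The labels do not say whether replicates came from separate animals or cultures, so p-values measure the spread between libraries of a group, and that may be technical. All rods but those of P5 were reused from an older series, although no older sample is listed for P10 replicate 3 and P14 replicate 3. P5 rods and the cultured cells belong to the newer series, so at P5 the age and the series cannot be told apart.

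P10 to P14 is the span in which mouse rods build their outer segments and connect to their targets, around eye opening. Rods pass their signal to ON bipolar cells, which sense glutamate through the receptor encoded by Grm6. That receptor holds the cation channel Trpm1 closed in the dark through a G protein, at a site organised by the orphan receptor Gpr179. Müller glia, the radial glia of the retina, wrap these cells and carry water and potassium through channels such as Aqp4.

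The label of the set, rod genes, went against the markers. None of the 29 genes on a list of rod phototransduction and outer segment genes was a member, and 28 of them were higher in P28 rods than in the 5 P10 and P14 libraries. The summed level of that list was 114519 to 240408 CPM in the P10 and P14 libraries of the rule, against 5598 to 12681 CPM in P2 and P4 rods and 459708 to 675337 CPM in P28 rods, so the rod program was highest in P28 rods. Of the 54 genes, 13 were instead on marker lists of other cell types. The bipolar list held 6 of them (Grm6, Trpm1, Cabp5, Pcp2, Isl1 and Scgn, of 14 listed), the amacrine, horizontal and ganglion cell list 3 (Calb2, Nefm and Nefh, of 18 measured), and the lists for Müller glia (Aqp4), cones (Kcne2), lens (Cryab) and endothelium and pericytes (Rgs5) 1 each. They are therefore called by their rule, the genes higher at P10 and P14 than at P2, P4 and P28. In sorted bulk samples, a changed number of cells of a type and a changed amount of RNA per cell cannot be told apart.

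The whole marker lists moved as follows. The bipolar list summed to 347 to 643 CPM in the P10 and P14 libraries of the rule, against 252 to 369 CPM in P2 and P4 and 262 to 416 CPM in P28. Of its 14 genes, 11 were above P2 and P4 rods and above P28 rods in the mean and 9 were at least 3 times above both, although 3 of those lay under the level minimum. The Müller list summed to 1893 to 2043 CPM, against 1631 to 1866 CPM in P2 and P4 and 1262 to 1980 CPM in P28. Of its 19 genes, 7 had a mean above both, and the median ratio to P2 and P4 was 0.904. The amacrine, horizontal and ganglion list summed to 325 to 367 CPM, against 285 to 428 CPM in P2 and P4 and 93.4 to 120 CPM in P28. Of its 18 genes measured, 11 had a mean above both, and the median ratio to P2 and P4 was 1.98. The endothelium and pericyte list summed to 104 to 164 CPM, against 270 to 337 CPM in P2 and P4 and 21.8 to 52.4 CPM in P28, a sum carried by 1 gene, the receptor Kdr, at 47.3 to 104.9 CPM, against 247 to 304 CPM in P2 and P4. Its 12 other genes summed to 48.1 to 69.3 CPM in the P10 and P14 libraries of the rule, against 22.7 to 33.0 CPM in P2 and P4 and 17.8 to 46.9 CPM in P28, and 9 of the 13 genes had a mean above both.

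The microglia and leukocyte list holds no member, and 13 of its 15 genes had a mean above both that of P2 and P4 and that of P28. It summed to 45.9 to 111.9 CPM in the P10 and P14 libraries of the rule, against 21.9 to 38.6 CPM in P2 and P4 and 32.1 to 44.5 CPM in P28, with no overlap. P10 replicate 4, at 39.9 CPM, lay within the P28 range, P14 replicate 3 was at 100.1 CPM and P6 replicate 1 at 102.6 CPM. In the other lists, the genes with a mean above both were 3 of 4 erythroid, 3 of 5 lens and cornea, 7 of 12 pigment epithelium, 6 of 13 cone, 9 of 20 fibroblast and 2 of 11 astrocyte and oligodendrocyte genes. Mitochondrial transcripts held 7.92% to 19.1% of the signal in the P10 and P14 libraries of the rule, against 3.87% in P10 replicate 4 and 3.95% in P14 replicate 3. The share of genes with a mean above both was computed only for genes at 10 CPM or more, at 16.5%. Some list genes lay lower, so the list counts are a description only. The part of these shifts in the members' values was not tested.

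**Figure D1:**
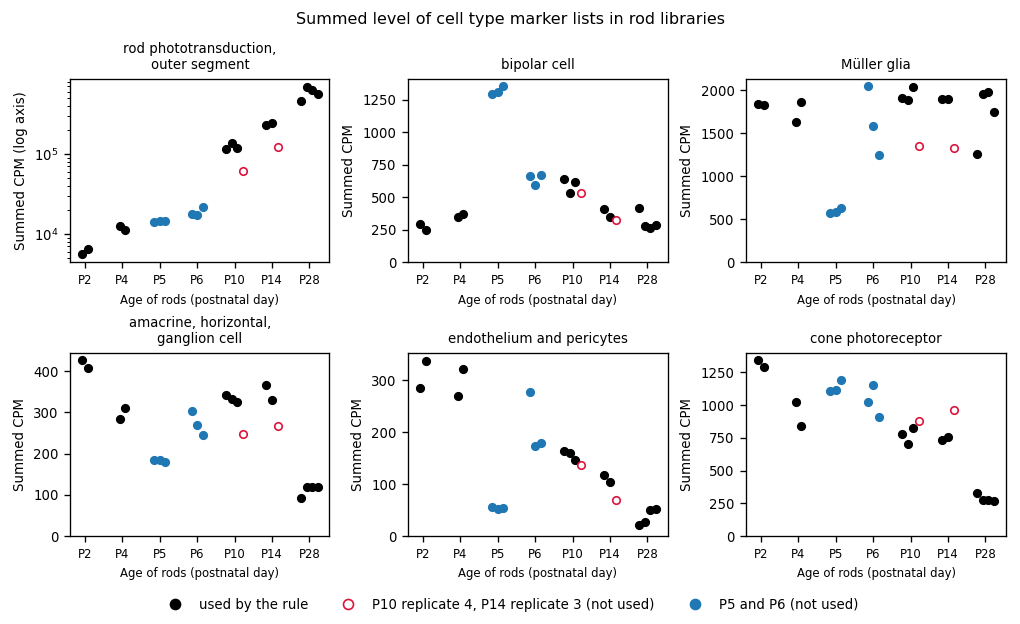
Summed CPM of 6 cell type marker lists (y axis) in each rod library, by age in postnatal days (x axis). Filled black points are libraries used to choose the genes, open red points are P10 replicate 4 and P14 replicate 3, and blue points are P5 and P6 rods. The rod list climbs through P28 on its log axis, whereas the bipolar list is highest in P5 rods, at 1290 to 1352 CPM.

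The 54 genes together gave 1198 to 1515 CPM in the 5 P10 and P14 libraries of the rule, against 205 to 256 CPM in P2 and P4 and 194 to 233 CPM in P28. Their means over the 5 libraries ran from 10.5 to 106.6 CPM with a median of 20.2 CPM, and 25 lay under 20 CPM. The ratio to P2 and P4 had a median of 6.05 (3.01 to 66.2) and the ratio to P28 a median of 7.26 (3.05 to 44.7). In 52 of the 54, each of the 5 libraries was above each P2, P4 and P28 library, against 3.92% of all genes, a separation that the rule favours and that is read as nothing more. Among 8659 genes at 10 CPM or more in these libraries, 1430 (16.5%) had a mean above both that of P2 and P4 and that of P28, and 54 (0.624%) reached 3-fold over both. Just inside the fold threshold lay Atp1b1 at 3.01, Nefm at 3.02 and Paqr9 at 3.05, and just outside it Rd3l at 2.84 and Susd4 at 2.83. Just inside the level minimum were Cntn4 at 10.5 CPM, Vsnl1 at 10.8 CPM and Qpct at 11.2 CPM, and just outside it Bhlhe23 at 9.05 CPM, Camkv at 9.03 CPM and Chrna6 at 8.86 CPM.

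**Figure D2:**
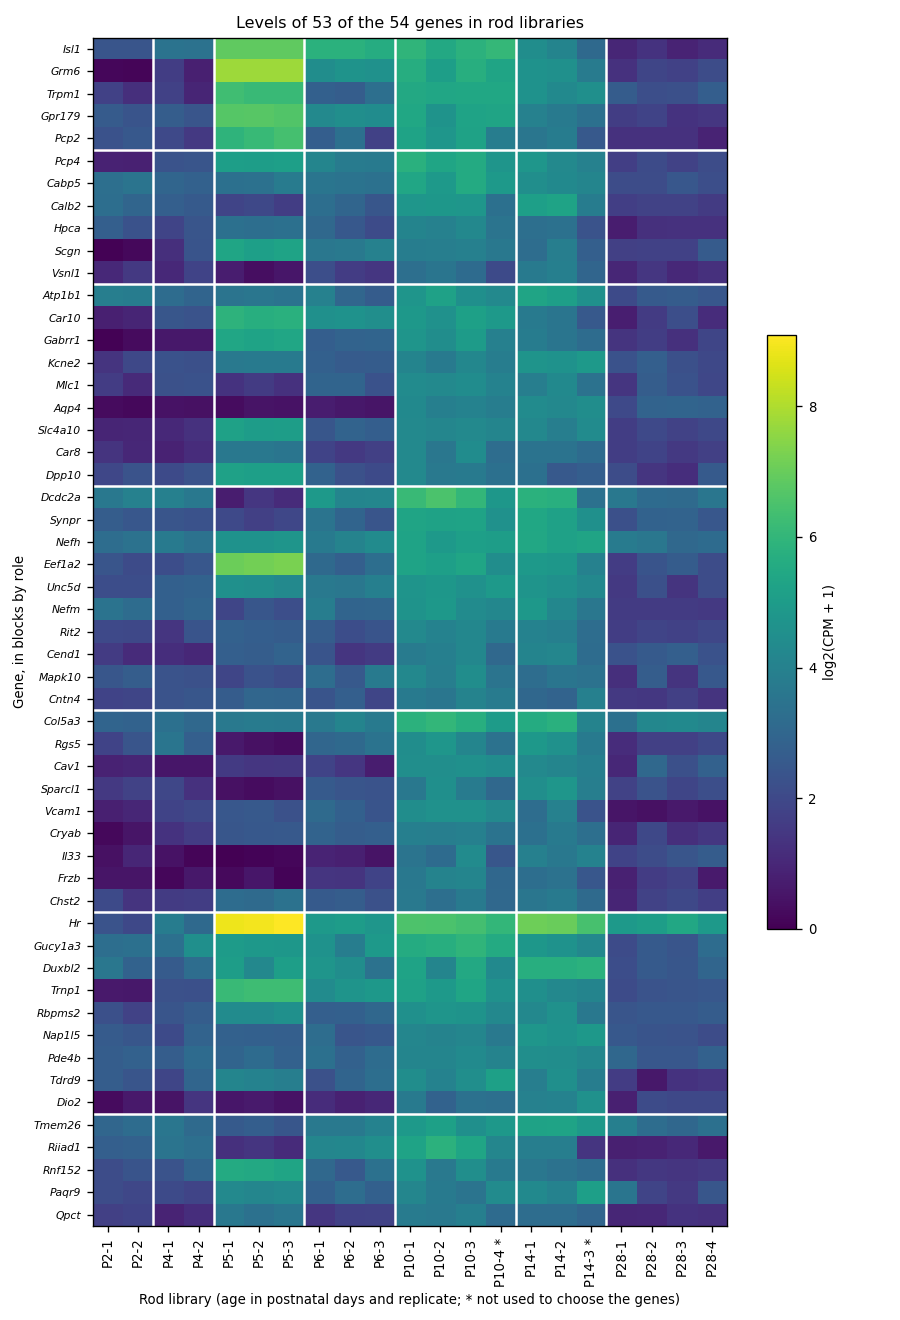
Level of 53 of the 54 genes as log2(CPM + 1) in the colour scale (rows, in blocks by role) in each rod library (columns, by age and replicate). Libraries with an asterisk, P10 replicate 4 and P14 replicate 3, were not used to choose the genes. The P10 and P14 columns are brighter than those of P2, P4 and P28 by construction, and the P5 columns differ from both neighbours in many rows.

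The transduction cascade and identity of ON bipolar cells accounted for 5 members. Grm6, its glutamate receptor, had 0.107 and 0.0782 CPM at P2, 2.16 and 0.755 at P4, 20.8, 24.4 and 23.1 at P6, 49.8, 33.6, 50.7 and 38.5 at P10, 24.0, 22.7 and 12.7 at P14 and 1.46, 2.73, 2.37 and 3.29 CPM at P28. It stood 46.6 times above P2 and P4 and 14.7 times above P28 in the libraries of the rule, and none of the P10 and P14 libraries overlapped with either. Trpm1, the channel it controls, had 2.42 and 1.33 CPM at P2, 2.35 and 0.899 at P4, 5.90, 5.43 and 9.13 at P6, 44.1, 41.1, 41.6 and 41.8 at P10, 23.6, 18.7 and 21.9 at P14 and 5.22, 3.57, 3.63 and 5.55 CPM at P28. Replicate 4 of P10 and replicate 3 of P14, which did not choose it, lay among the others of their age for Trpm1. Gpr179 had 5.04 and 4.13 CPM at P2, 5.47 and 4.30 at P4, 18.6, 21.5 and 20.5 at P6, 41.6, 24.8, 37.9 and 38.8 at P10, 14.9, 12.5 and 9.17 at P14 and 2.17, 2.55, 1.5 and 1.73 CPM at P28. Pcp2, a modulator of G proteins in ON bipolar cells and Purkinje cells, had 37.8, 26.2, 36.5 and 13.5 CPM at P10 and 10.9, 13.1 and 4.83 CPM at P14, where the spread was wide. Isl1, a homeodomain factor of ON bipolar and other inner retinal neurons, was already at 55.0, 54.9 and 48.1 CPM at P6, next to 60.8, 44.2, 56.0 and 66.4 CPM at P10, 21.3, 16.1 and 7.53 CPM at P14 and 0.968, 1.52, 0.889 and 1.19 CPM at P28. All 5 had a higher mean in the P10 than in the P14 libraries of the rule, with a median P14 to P10 ratio of 0.395.

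The promoters of the 4 members of the bipolar list with the highest P10 and P14 means are shown because they are the members with the clearest cell type label. Each runs from 250 bases before to 50 bases after a transcription start in RefSeq (GRCm38.p6), on the strand of the gene. Capitals mark TAATCC or its reverse complement, the core bound by homeodomain factors of the Crx and Otx2 type. Isl1 (minus strand, chr13:116309639-116309938) holds 1 copy, Grm6 (plus strand, chr11:50850435-50850734) holds 0, Trpm1 (plus strand, chr7:64153585-64153884, the upstream of its annotated starts) holds 1 and Cabp5 (plus strand, chr7:13397905-13398204) holds 2.
Isl1: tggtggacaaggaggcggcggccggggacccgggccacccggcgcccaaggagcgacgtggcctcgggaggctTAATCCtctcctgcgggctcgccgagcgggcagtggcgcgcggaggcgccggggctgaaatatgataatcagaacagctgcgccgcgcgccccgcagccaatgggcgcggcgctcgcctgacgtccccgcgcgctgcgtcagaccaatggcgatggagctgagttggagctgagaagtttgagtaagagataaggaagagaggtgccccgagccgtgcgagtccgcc
Grm6: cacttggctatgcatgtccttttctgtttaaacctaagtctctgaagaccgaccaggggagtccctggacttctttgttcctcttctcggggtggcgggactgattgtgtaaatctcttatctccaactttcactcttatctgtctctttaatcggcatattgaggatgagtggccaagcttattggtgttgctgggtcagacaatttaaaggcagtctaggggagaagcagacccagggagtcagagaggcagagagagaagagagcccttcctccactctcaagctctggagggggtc
Trpm1: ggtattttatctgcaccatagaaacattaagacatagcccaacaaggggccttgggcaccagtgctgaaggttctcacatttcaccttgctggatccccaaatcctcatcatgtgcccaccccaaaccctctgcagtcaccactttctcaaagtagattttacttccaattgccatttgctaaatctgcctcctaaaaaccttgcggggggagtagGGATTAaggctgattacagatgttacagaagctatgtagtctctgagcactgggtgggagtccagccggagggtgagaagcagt
Cabp5: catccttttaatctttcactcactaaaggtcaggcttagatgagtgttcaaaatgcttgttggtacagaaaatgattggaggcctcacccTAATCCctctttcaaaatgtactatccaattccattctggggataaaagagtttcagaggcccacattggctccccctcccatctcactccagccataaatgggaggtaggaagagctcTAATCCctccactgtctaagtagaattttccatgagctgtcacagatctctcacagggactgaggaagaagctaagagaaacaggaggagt

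A promoter was matched for 37 of the 54 genes. Genes with several starts have several windows, 55 in all for these 37 genes, and the shares are per window of 300 bases. TAATCC on either strand was in 4 of the 55 (7.27%), against 5.93% of the 14781 windows of all 11583 genes matched. The Nrl and Maf type core TGCTGA was in 12 (21.8%), against 16.3% of all windows, and the nuclear receptor core AGGTCA in 12 (21.8%), against 12.7%. The E-boxes CAGATG and CAGCTG were in 13 each (23.6%), against 12.2% and 16.0% of all windows in that order. The CCAAT box was in 26 (47.3% against 37.4%), the TATAAA box in 8 (14.5% against 8.1%), the cyclic AMP element TGACGTCA in 2 (3.64% against 2.81%) and the GC box GGGCGG in 22 (40.0% against 58.9%). Windows of 1 gene can overlap. Both strands were searched for each motif, and none of the motifs contains another. These are descriptions of letters in a window.

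Another 6 genes are calcium-binding proteins or regulators of calmodulin. Calb2, calretinin of amacrine and ganglion cells, had 26.7, 27.4 and 26.4 CPM in P10 replicates 1 to 3, 33.9 and 38.2 CPM in P14 replicates 1 and 2, against 2.19, 2.47, 2.50 and 2.00 CPM at P28. The libraries left out of the rule were lower, with 9.16 CPM in P10 replicate 4 and 13.0 CPM in P14 replicate 3, the first of them close to the 8.70 and 6.77 CPM at P2. Cabp5, a calmodulin-like protein of bipolar cells, had 40.5, 28.9, 45.8 and 28.5 CPM at P10 and 21.7, 18.9 and 16.7 CPM at P14, against 9.04 and 10.5 CPM at P2, 6.91 and 6.09 CPM at P4 and 3.36, 3.33, 4.58 and 3.60 CPM at P28. Scgn, secretagogin, had 13.6, 14.0, 14.5 and 11.6 CPM at P10 and 8.61, 13.8 and 5.71 CPM at P14, and was at 0.0263 and 0.154 CPM at P2. Pcp4, which tunes calmodulin, had 53.7, 39.3, 45.9 and 25.5 CPM at P10 and 26.4, 18.4 and 15.1 CPM at P14, against 0.827 and 0.773 CPM at P2 and 2.25, 3.27, 2.49 and 3.30 CPM at P28. For Cabp5 and Pcp4, each P10 and P14 library was above each P2, P4 and P28 library. Hpca, the neuronal calcium sensor hippocalcin, had 16.4, 14.9, 18.1 and 10.4 CPM at P10 and 8.89, 9.42 and 4.01 CPM at P14. Vsnl1, a sensor of the same family, had 9.06, 10.7, 8.04 and 3.09 CPM at P10 and 12.2, 14.2 and 6.77 CPM at P14. The median ratio of the left-out libraries to those of the rule was 0.542 over the group.

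A group of 9 genes holds receptors, channels, pumps and transporters. Placed with them were the carbonic anhydrase relatives Car10 and Car8. Gabrr1, a subunit of the ionotropic GABA receptor of bipolar cells, had 0.0280 and 0.191 CPM at P2, 0.518 and 0.501 at P4, 5.58, 6.49 and 6.63 at P6, 25.9, 21.3, 30.6 and 14.8 at P10, 13.0, 10.6 and 8.21 at P14 and 1.59, 2.18, 1.42 and 2.75 CPM at P28. Aqp4, the water channel of Müller end feet, had 0.211 and 0.148 CPM at P2, 0.364 and 0.320 at P4, 0.643, 0.488 and 0.431 at P6, 19.1, 14.1, 15.2 and 13.5 at P10, 19.8, 18.1 and 20.8 at P14 and 3.03, 6.40, 6.66 and 6.34 CPM at P28. No P10 or P14 library of Aqp4 overlapped with another age, the left-out libraries included. Kcne2, a beta subunit of potassium channels that is on the cone list, had 16.1, 12.1, 17.7 and 13.6 CPM at P10 and 25.4, 23.9 and 28.5 CPM at P14, against 1.58 and 2.97 CPM at P2, 3.88 and 3.64 CPM at P4 and 3.84, 5.72, 3.71 and 2.90 CPM at P28. Its values were higher in each P14 library than in each P10 library. Car10, a carbonic anhydrase relative without enzyme activity, had 22.6, 23.9 and 21.7 CPM at P6, 27.8, 23.0, 34.9 and 29.6 CPM at P10 and 12.4, 10.7 and 4.77 CPM at P14. The bicarbonate transporter Slc4a10 held 18.5, 17.1, 18.4 and 16.8 CPM at P10 and 17.9, 14.0 and 20.004 CPM at P14, a flat course between the ages. The others were Atp1b1 (beta subunit of the sodium pump), Mlc1 (a membrane protein of astrocytes and Müller glia), Car8 (a carbonic anhydrase relative that binds the inositol trisphosphate receptor) and Dpp10 (an auxiliary subunit of A-type potassium channels), with ratios of 3.01, 6.79, 12.1 and 3.27 to P2 and P4 in the same order.

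The largest group, 11 genes, belongs to the axon, the vesicle and the cytoskeleton. Nefh, the heavy neurofilament chain, had 8.55 and 9.70 CPM at P2, 12.04 and 9.84 at P4, 12.3, 15.9 and 20.2 at P6, 37.8, 29.5, 33.8 and 32.5 at P10, 43.1, 35.7 and 38.5 at P14 and 12.9, 11.1, 7.38 and 8.08 CPM at P28. Its P10 and P14 libraries, left-out ones included, overlapped with no other age of the older series. Dcdc2a, a doublecortin-domain protein of microtubules and cilia, had 70.1, 90.3 and 63.9 CPM in P10 replicates 1 to 3 and 54.8 and 52.1 CPM in P14 replicates 1 and 2. The left-out libraries were far lower for it, at 27.1 CPM in P10 replicate 4 and 9.42 CPM in P14 replicate 3, the second of which lay below the 11.5 and 15.1 CPM of P2. Synpr, synaptoporin of synaptic vesicles, had 39.1, 36.5, 38.0 and 23.1 CPM at P10 and 41.5, 35.6 and 22.8 CPM at P14, against 5.42 and 4.60 CPM at P2, 4.33 and 3.91 CPM at P4 and 3.72, 6.26, 6.39 and 4.47 CPM at P28. Eef1a2, the translation elongation factor of neurons and muscle, had 38.2, 34.1, 40.1 and 21.0 CPM at P10 and 29.0, 27.4 and 15.1 CPM at P14. Nefm, Unc5d (a netrin receptor), Rit2 (a neuronal small GTPase), Cend1, Mapk10 (the neuronal JNK kinase) and Cntn4 (an axonal adhesion protein) were further members of the group, with ratios of 3.02 to 11.3 to P2 and P4.

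Another 9 were grouped as matrix, adhesion, membrane or secreted proteins, with the heat shock protein Cryab and the G protein regulator Rgs5 placed among them. Each of the 9 was above 1 CPM in MEF, as were some genes of other groups. Col5a3, a chain of fibrillar collagen, had 56.2, 63.3, 51.0 and 30.7 CPM at P10 and 47.2, 53.6 and 16.0 CPM at P14, against 6.61 and 6.30 CPM at P2, 9.15 and 7.47 CPM at P4 and 9.24, 17.5, 18.9 and 16.8 CPM at P28. Here P14 replicate 3 lay among the P28 values. Cav1, the coat protein of caveolae, had 0.808 and 0.911 CPM at P2, 0.479 and 0.460 at P4, 2.57, 1.70 and 0.656 at P6, 21.7, 21.4, 22.5 and 20.3 at P10, 18.5, 16.8 and 14.3 at P14 and 1.04, 7.5, 3.71 and 6.17 CPM at P28, with no overlap between P10 or P14 and the other ages. Vcam1, an adhesion receptor, had 21.3, 23.2, 23.1 and 18.4 CPM at P10 and 8.43, 15.1 and 4.04 CPM at P14, against 0.415, 0.322, 0.535 and 0.356 CPM at P28. Il33, an alarmin made by Müller glia among other cells, had 10.2, 8.12, 19.8 and 4.40 CPM at P10 and 14.4, 11.6 and 15.3 CPM at P14, against 0.337 and 0.981 CPM at P2 and 0.368 and 0.0926 CPM at P4. Frzb, a secreted Wnt antagonist, had 11.4, 16.0, 16.8 and 7.13 CPM at P10 and 8.76, 9.81 and 4.59 CPM at P14, against 0.439 and 0.415 CPM at P2 and 0.112 and 0.504 CPM at P4. Il33 varied widely among the P10 libraries, and P14 replicate 3 was the lowest P14 library for Vcam1 and Frzb. Cryab, a small heat shock protein also abundant in the lens, had 14.1, 14.0, 14.7 and 10.1 CPM at P10 and 9.17, 12.2 and 8.94 CPM at P14. Rgs5, a regulator of G protein signalling known from pericytes, Sparcl1, a matrix protein of astrocytes, and Chst2, a sulfotransferase, had ratios of 4.00, 8.78 and 5.09 to P2 and P4 in that order.

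A further 9 encode signalling enzymes or nuclear and hormone-related proteins. Hr, a corepressor of nuclear receptors, had 4.04 and 2.97 CPM at P2, 13.1 and 7.53 at P4, 29.4, 32.03 and 26.8 at P6, 93.3, 90.1, 82.8 and 63.4 at P10, 137, 129.97 and 87.4 at P14 and 28.2, 32.1, 43.0 and 29.4 CPM at P28. Its mean over the libraries of the rule was 15.4 times that of P2 and P4 and 3.21 times that of P28. Dio2, the enzyme that activates thyroid hormone, had 12.2, 6.20, 9.61 and 9.12 CPM at P10 and 15.1, 15.4 and 23.5 CPM at P14, against 0.207 and 0.522 CPM at P2, 0.389 and 1.63 CPM at P4 and 0.736, 3.24, 2.93 and 2.92 CPM at P28. Gucy1a3, a subunit of the guanylate cyclase that senses nitric oxide, had 47.6, 51.5, 61.6 and 46.2 CPM at P10 and 26.8, 23.9 and 17.8 CPM at P14. Trnp1, a nuclear protein of neural progenitors, was at 19.97, 24.9 and 28.1 CPM at P6, 35.5, 28.7, 40.2 and 23.5 CPM at P10 and 22.0, 18.0 and 16.2 CPM at P14. Duxbl2, a double homeobox gene with near-identical copies whose reads may be divided between them, had 38.1, 16.6, 43.8 and 18.9 CPM at P10 and 51.5, 51.3 and 55.2 CPM at P14. For Dio2 and Duxbl2 each P14 library was above each P10 library, and for Gucy1a3 and Trnp1 each was below. Pde4b (a cyclic AMP phosphodiesterase), Rbpms2 (an RNA-binding protein), Nap1l5 and Tdrd9 (a helicase of the germ line) ran between 11.4 and 34.8 CPM over the P10 and P14 libraries. The last 5 genes were Tmem26, Riiad1, Rnf152 (a lysosomal ubiquitin ligase), Paqr9 and Qpct (a glutaminyl cyclase). Riiad1 had 37.8, 56.0, 39.7 and 17.0 CPM at P10 and 13.8, 14.0 and 1.65 CPM at P14, where replicate 3 stood near the 0.743, 0.815, 1.05 and 0.555 CPM of P28.

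**Figure D3:**
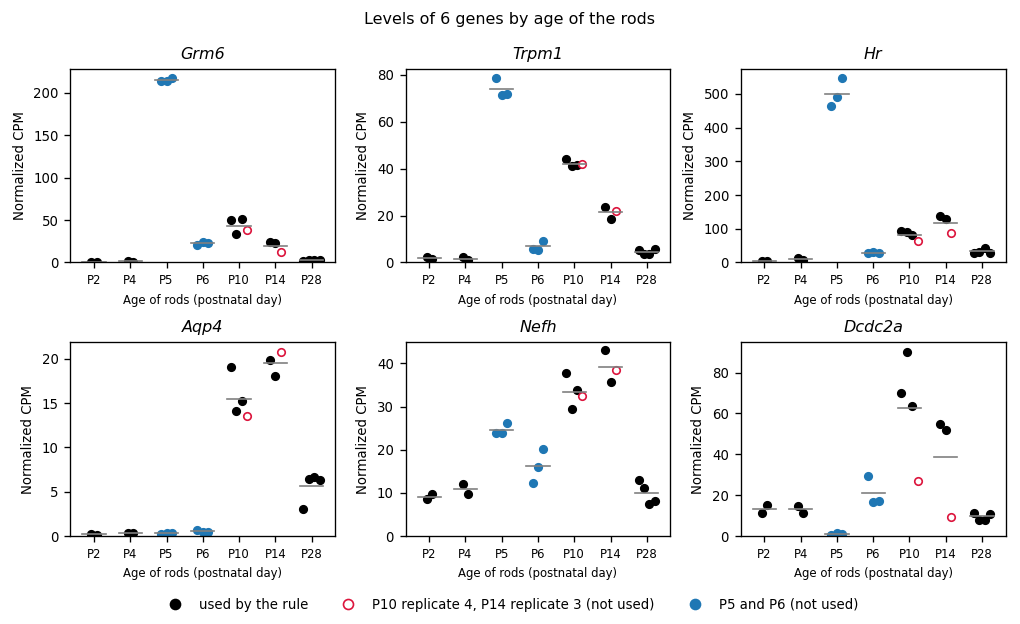
CPM of 6 of the genes (y axis, from 0) in each rod library by age in postnatal days (x axis), with a grey line at the mean of each age. Filled black points were used to choose the genes, open red points are P10 replicate 4 and P14 replicate 3, and blue points are P5 and P6 rods. Grm6, Trpm1 and Hr are highest at P5, whereas Aqp4 and Dcdc2a are near their lowest there.

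All 54 are protein-coding genes, on 19 chromosomes with at most 5 on any. Of them, 23 overlap a gene on the opposite strand in GENCODE M21 (GRCm38). The strand of the library kit is not given in the sources used here, so for those the reads of both genes cannot be told apart. Their longest transcripts had a median of 3242 bases, against 3450 bases over all protein-coding genes of the table. By position (GRCm38), Grm6 lies on chromosome 11, 50850685 to 50866208, plus strand, Trpm1 on chromosome 7, 64153835 to 64269775, plus strand, Isl1 on chromosome 13, 116298281 to 116309689, minus strand, Aqp4 on chromosome 18, 15389496 to 15410982, minus strand and Hr on chromosome 14, 70552212 to 70573548, plus strand. Of these, Grm6, Trpm1 and Aqp4 are among the 23.

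Many of the genes were lower at P14 than at P10. The mean of the P14 libraries of the rule was below that of its P10 libraries in 35 of 54 genes, next to 43.4% of the genes at 10 CPM or more. The P10 mean was at least 2 times the P14 mean in 9 of them, next to 1.5% of such genes, and no member had a P14 mean at least 2 times the P10 mean. The 6 genes with a P14 mean at least 1.5 times the P10 mean were Hr, Duxbl2, Nap1l5, Kcne2, Sparcl1 and Dio2. These libraries chose the genes, so the counts carry no test. 

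P10 replicate 4 and P14 replicate 3 took no part in the choice. The P2, P4 and P28 libraries did, through their low values, so the counts against them are partly fixed by the choice and are given as a description. The mean of the left-out libraries was above the P2 and P4 mean and above the P28 mean in 54 of 54 genes, next to 31.2% of all genes, and at least 3 times both in 33, next to 3.45%. In 45 genes both libraries lay above each P2, P4 and P28 library, next to 11.4% of all genes. They were lower than the libraries of the rule, with a median ratio of 0.681, while all genes at 10 CPM or more had a median ratio of 0.943. P10 replicate 4 lay below the other P10 libraries in 39 members, next to 32.8% of all genes, and P14 replicate 3 below the other P14 libraries in 41, next to 42.4%. The members had been picked for high values in those other libraries. The left-out libraries also had a lower mitochondrial share and a lower Müller list sum (1334 to 1347 CPM). The rod list summed to 60448.5 CPM in P10 replicate 4, against 114519 to 138563 CPM in the other P10 libraries, and to 123395 CPM in P14 replicate 3, against 228348 and 240408 CPM in the other P14 libraries. The erythroid list summed to 46.02 CPM in P14 replicate 3, against 6.64 and 8.60 CPM in the other P14 libraries. The part of these shifts was not tested.

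Set against P6 rods, which the rule did not use either, the left-out libraries were higher in 27 of the 54 genes and lower in 2, and 25 did not pass, where a call needs an adjusted p below 0.05 and a change of 1 or more in log2(CPM + 1). Over all 13668 genes tested, 7.38% were higher and 10.8% lower. With the replicate number as a block, 22 members were higher and 3 lower. Each left-out library had a coefficient of its own, so SE and p-values come from the spread within the groups of older rods. The difference between the 2 left-out libraries, which differ in age, does not enter them. The median log2 change was 0.93 over the members and -0.02 over all genes, and in 32 members both libraries lay above each P6 library, next to 22.5% of all genes. The largest was Aqp4, with 13.5 CPM in P10 replicate 4 and 20.8 CPM in P14 replicate 3, against 0.520 ± 0.110 CPM in P6 rods (SD, n = 3; log2 change 3.55 ± 0.25 SE, adjusted p = 3.26e-08, limma). Dio2 had 9.12 CPM in P10 replicate 4 and 23.5 CPM in P14 replicate 3, against 1.02 ± 0.232 CPM in P6 rods (log2 change 2.97 ± 0.37 SE, adjusted p = 1.08e-05, limma). Cav1 had 20.3 and 14.3 CPM in the left-out libraries, against 1.64 ± 0.960 CPM in P6 rods (log2 change 2.84 ± 0.44 SE, adjusted p = 0.000105, limma). For each of these 3 genes, both left-out libraries were above all 3 P6 libraries.

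Il33 rose as well, with 4.40 CPM in P10 replicate 4 and 15.3 CPM in P14 replicate 3, against 0.683 ± 0.251 CPM in P6 rods (log2 change 2.49 ± 0.32 SE, adjusted p = 1.82e-05, limma). So did the ON bipolar channel Trpm1, with 41.8 CPM in P10 replicate 4 and 21.9 CPM in P14 replicate 3, against 6.82 ± 2.01 CPM in P6 rods (log2 change 2.03 ± 0.28 SE, adjusted p = 2.90e-05, limma). Of the others in that group, Grm6, Gpr179 and Pcp2 did not pass. Grm6 had a log2 change of -0.03 ± 0.27 SE, with 38.5 CPM in P10 replicate 4 above and 12.7 CPM in P14 replicate 3 below the 20.8, 24.4 and 23.1 CPM of P6 rods. Gpr179 likewise lay on both sides, with 38.8 and 9.17 CPM in the left-out libraries and 18.6, 21.5 and 20.5 CPM in P6 rods. The 2 genes called lower were Riiad1 (log2 change -1.52 ± 0.20 SE, adjusted p = 2.14e-05, limma) and Isl1 (log2 change -1.16 ± 0.19 SE, adjusted p = 0.000162, limma). Isl1 rested on P14 replicate 3, at 7.53 CPM, since P10 replicate 4 was at 66.4 CPM, against 52.7 ± 3.96 CPM in P6 rods. Over the whole bipolar list, 2 of 14 genes were higher and 6 lower, and over the Müller list 3 of 19 higher and 7 lower. Over the rod list, 25 of 29 genes were higher and 0 lower. In P10 replicate 4 alone, 25 members were higher and 0 lower than in P6 rods, next to 4.69% and 5.47% of all genes. In P14 replicate 3 alone, 22 were higher and 6 lower, next to 10.7% and 16.1% of all genes. The comparison of both left-out libraries with P6 rods and the single-library fits assume that a lone library varies like the other groups.

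**Figure D4:**
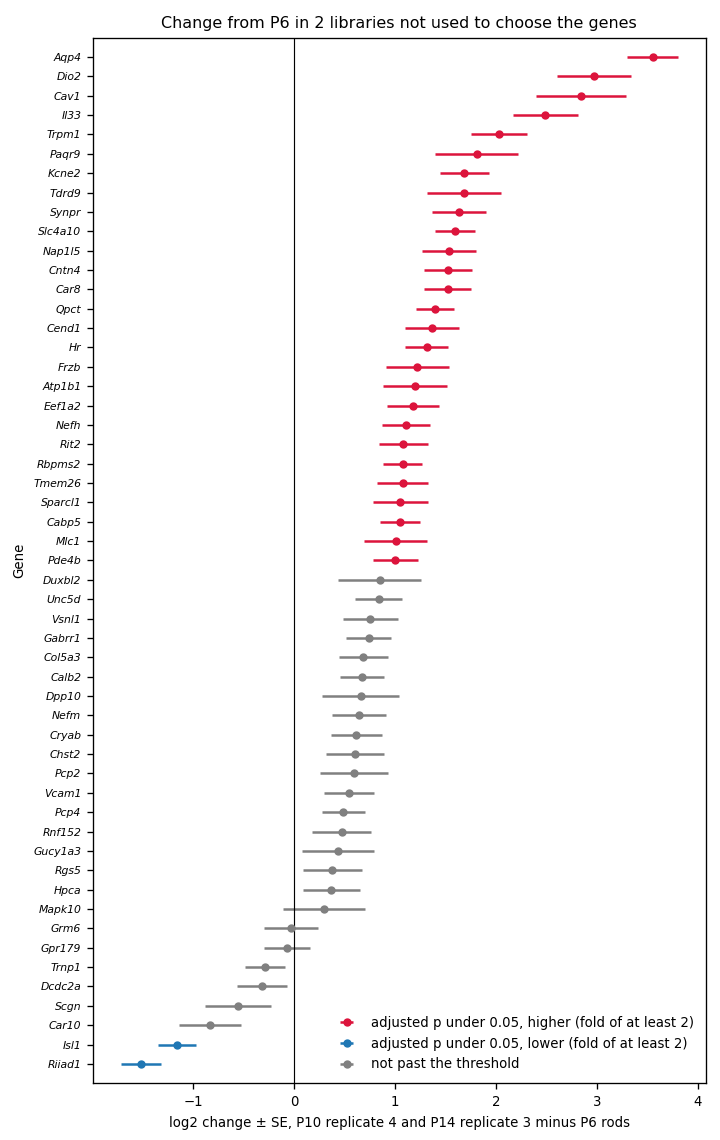
Log2 change on the log2(CPM + 1) scale (x axis), P10 replicate 4 and P14 replicate 3 minus P6 rods (n = 3), for 53 of the 54 genes (y axis), with bars of ± 1 SE from limma. Red points are the 27 genes called higher, blue points the 2 called lower and grey points 24 that did not pass. The SE comes from the spread within the groups of older rods and leaves out the difference between the left-out libraries.

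P5 rods did not lie between P4 and P6 for many of the genes. The P5 mean was at least 3 times the mean of P4 and P6 in 20 of the 54, next to 2.21% of the genes at 10 CPM or more in the P10 and P14 libraries, while it was at least 3 times below it in 8, next to 3.91% of those genes. P4 took part in the choice of the genes, through its low values, and P6 did not. The choice therefore favours the count of 20, which is a description only. The P5 mean was above the P10 and P14 mean in 15 members, a smaller share than the 41.7% of those genes, and at least 2 times above it in 12. The members were picked for a high P10 and P14 mean, which favours a smaller share, and no share was computed for the 12. All 5 ON bipolar genes were among the 15. Grm6 had 214, 214 and 218 CPM at P5, against 2.16 and 0.755 CPM at P4 and 20.8, 24.4 and 23.1 CPM at P6. Trpm1 had 78.6, 71.3 and 71.7 CPM at P5, Isl1 116, 117 and 116 CPM, Gpr179 103, 105 and 97.0 CPM and Pcp2 59.0, 69.3 and 84.0 CPM. In each of them the lowest P5 library was above the highest library of any other age. The share of all genes with such a separation was not computed, so it is a description only. Hr was at 464, 491 and 547 CPM and Eef1a2 at 130.5, 141 and 153 CPM, and the other 8 were Trnp1, Car10, Gabrr1, Slc4a10, Rnf152, Paqr9, Scgn and Dpp10. Far below their P10 and P14 levels at P5 stood Aqp4 at 0.220, 0.386 and 0.355 CPM, Il33 at 0, 0.0552 and 0.110 CPM, Sparcl1 at 0.326, 0.232 and 0.331 CPM, Rgs5 at 0.526, 0.317 and 0.222 CPM and Dcdc2a at 0.672, 1.72 and 1.15 CPM. In these libraries the bipolar list summed to 1290 to 1352 CPM, against 598 to 673 CPM at P6, and the Müller list to 573 to 634 CPM, against 1252 to 2055 CPM at P6. The part of these lists was not tested, and age and series cannot be told apart. In 39 members the P10 and P14 mean was above both the P5 and the P6 mean, a count that the choice favours and that is a description only.

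The genes were then followed through reprogramming, where none of the libraries had been used to choose them. All 54 passed the filter of at least 1 CPM in at least 3 libraries, and 14798 genes were tested in 1 fit. In MEF, 29 of the 54 were under 1 CPM in the mean, all 5 ON bipolar genes and all 6 calcium-binding genes among them. All 9 genes of the matrix group and some genes of other groups were above 1 CPM. In CiPC, 5 were under 1 CPM. The matching shares of all genes were not computed, so these counts are a description only. The summed level was 1354 to 1477 CPM in CiPC and 1264 to 1293 CPM in MEF, but different genes made it up, with Cav1 at 594, 594 and 583 CPM the largest term of the MEF sum. The comparisons below share the MEF, RI-d8 and CiPC libraries and are not independent of each other.

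In CiPC against MEF, 31 of the 54 were higher and 4 lower, next to 15.4% and 16% of all genes, with a median log2 change of 1.36 against -0.02 over all genes. The ON bipolar genes were all higher. Grm6 had 34.4, 36.6 and 35.9 CPM in CiPC, against 0, 0.162 and 0.0868 CPM in MEF (log2 change 5.08 ± 0.10 SE, adjusted p = 2.50e-16, limma). Gpr179 had 31.2, 26.1 and 26.6 CPM in CiPC, against 0.0399, 0.348 and 0.0396 CPM in MEF (log2 change 4.67 ± 0.12 SE, adjusted p = 1.06e-14, limma). Trpm1 averaged 23.8 ± 1.01 CPM, Pcp2 18.3 ± 6.12 CPM and Isl1 14.99 ± 0.585 CPM in CiPC, against 0.371 ± 0.187, 0.101 ± 0.0308 and 0.593 ± 0.310 CPM in MEF in the same order (SD, n = 3 each). The groups overlapped in none of these genes. Such separation was common, since each CiPC library was above each MEF library in 37.7% of all genes and below in 40%. Hr had 145, 129 and 102 CPM in CiPC, against 2.09, 2.44 and 1.99 CPM in MEF (log2 change 5.30 ± 0.16 SE, adjusted p = 6.77e-14, limma). Mlc1 had 55.5, 54.8 and 55.7 CPM in CiPC, against 0.670, 0.537 and 0.532 CPM in MEF (log2 change 5.16 ± 0.10 SE, adjusted p = 4.52e-16, limma), and Eef1a2 36.4, 31.8 and 25.2 CPM, against 0.236, 0.174 and 0.0926 CPM. Across the whole lists, 11 of 14 bipolar and 16 of 19 Müller genes were higher in CiPC and 0 lower in either. Such rises were not particular to those lists, since 25 of 29 rod list genes were higher and 0 lower.

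The 4 lower genes were Rgs5, with 1.69 ± 0.244 CPM in CiPC against 90.6 ± 2.68 CPM in MEF (log2 change -5.09 ± 0.13 SE, adjusted p = 9.02e-15, limma), Cav1, Col5a3 and Rbpms2. Cav1 averaged 106 ± 2.27 CPM in CiPC and 590.0 ± 6.33 CPM in MEF. Its CiPC mean lay above the 21.7, 21.4, 22.5 and 20.3 CPM of P10 rods, which belong to the older series, and this was not tested. The 5 genes under 1 CPM in CiPC were Aqp4, Nefh, Kcne2, Riiad1 and Vsnl1, although Aqp4 was called higher at day 8 than at day 5.

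At day 5, 16 were higher and 7 lower than in MEF, next to 13.6% and 12.6% of all genes. Tmem26 had 52.4, 49.8 and 48.0 CPM at day 5, against 0.401, 0.272 and 0.857 CPM in MEF (log2 change 5.10 ± 0.14 SE, adjusted p = 2.34e-14, limma). Car10 (log2 change 4.14 ± 0.10 SE, adjusted p = 2.97e-15, limma), Sparcl1, Nefm and Pde4b also rose, while Rgs5, Cryab, Rbpms2 and Atp1b1 were among the most reduced. Cryab averaged 19.7 ± 1.01 CPM at day 5 and 146 ± 4.89 CPM in MEF (log2 change -2.82 ± 0.06 SE, adjusted p = 2.67e-15, limma). Between day 8 and day 5, 3 genes were higher and 1 lower, next to 3.24% and 2.71% of all genes. Paqr9 had 24.8, 24.5 and 24.9 CPM at day 8, against 0.871, 0.497 and 0.741 CPM at day 5 (log2 change 3.92 ± 0.10 SE, adjusted p = 9.24e-14, limma). Hpca and Aqp4 were the other higher genes and Frzb the lower one. No ON bipolar gene was called at either step, and Grm6 was still at 0.130, 0.0689 and 0.291 CPM at day 8.

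From day 8 to CiPC, 28 genes were higher and 8 lower, next to 14.3% and 15.6% of all genes. The largest rise was that of Mlc1 (log2 change 5.69 ± 0.10 SE, adjusted p = 7.23e-17, limma), followed by Grm6, Gpr179, Trpm1 and Cryab. Cryab had 394, 381 and 345 CPM in CiPC, against 18.5, 19.5 and 20.9 CPM at day 8. The 5 genes that fell most had all been called higher at day 5 against MEF. Sparcl1 had 1.34, 2.01 and 1.88 CPM in CiPC, against 81.2, 84.6 and 78.4 CPM at day 8 (log2 change -4.92 ± 0.10 SE, adjusted p = 3.22e-16, limma), Tmem26 1.52, 1.79 and 2.42 CPM, against 47.7, 46.2 and 41.6 CPM, and Nefm 6.03, 6.23 and 7.30 CPM, against 63.1, 65.9 and 70.0 CPM. Col5a3 and Pde4b fell too.

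**Figure D5:**
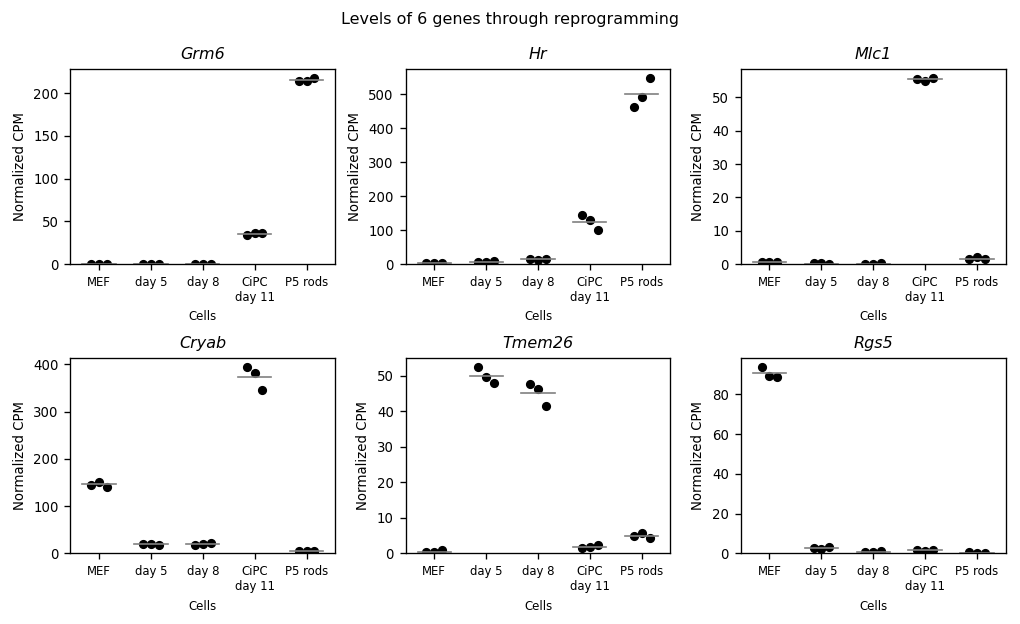
CPM of 6 of the genes (y axis, from 0) in each library of MEF, day 5, day 8, CiPC (day 11) and P5 rods (x axis), with a grey line at the mean of each group (n = 3). Grm6, Hr and Mlc1 appear in CiPC, Tmem26 is high at days 5 and 8 alone among the cultured cells, and Cryab is lowest at days 5 and 8 among the cultured cells.

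Against P5 rods, CiPC had 15 of the 54 genes higher and 24 lower, next to 22.8% and 16.9% of all genes. All 5 ON bipolar genes were lower in CiPC. Grm6 had 34.4, 36.6 and 35.9 CPM in CiPC, against 214, 214 and 218 CPM in P5 rods (log2 change -2.56 ± 0.10 SE, adjusted p = 6.06e-13, limma). Isl1 had 15.6, 14.8 and 14.5 CPM in CiPC, against 116, 117 and 116 CPM in P5 rods (log2 change -2.88 ± 0.15 SE, adjusted p = 2.60e-11, limma). Nefh (log2 change -3.77 ± 0.10 SE, adjusted p = 5.19e-15, limma), Gabrr1, Duxbl2 and Kcne2 were also far lower. On the higher side were Cryab (log2 change 6.05 ± 0.06 SE, adjusted p = 1.84e-19, limma), Cav1, Mlc1, Vcam1 and Dio2. Mlc1 had 55.5, 54.8 and 55.7 CPM in CiPC, against 1.49, 2.00 and 1.43 CPM in P5 rods. Of the 14 bipolar list genes 12 were lower and 0 higher in CiPC, and of the 19 Müller list genes 18 were higher and 0 lower. Other lists moved as widely, with 28 of 29 rod list genes lower and 0 higher, and 19 of 20 fibroblast list genes higher and 0 lower. The CiPC mean was above the P10 and P14 mean of rods in 11 of the 54 genes, a level set across the series that was not tested.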

How the data were processed

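RNA sequencing of 33 libraries in 11 groups was analysed. The other 3 of 36 listed samples, rods of P3, were not analysed here. Per the labels' protocols, each sample was sorted by reporter expression and held 80 ng of RNA. Per the submitters' processing notes, reads were quantified with kallisto. For its version and index, the genome build, the strand of the kit and the method of scaling, the entry is "not given in the sources used here". The deposited values are a signal per gene and library, named normalized CPM by the authors. Values were not whole, so the depth per sample is unknown, no count model was fitted, and no counting interval can be given. All value columns were used (0 left unused).

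Genes with at least 1 CPM in at least 3 libraries of a fit were compared as log2(CPM + 1) with limma 3.58.1 in R 4.3.3, with moderated variances and a mean trend. One fit held the older rods, with P10 replicate 4 and P14 replicate 3 given coefficients of their own, and the other held the newer series (each with 10 residual degrees of freedom). A call needed a Benjamini-Hochberg adjusted p below 0.05 over all genes tested and a change of at least 2-fold on that scale, which understates changes near 0 CPM. Folds of the description are ratios of mean CPM. CPM is not per length, so levels were not compared between genes.

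The members, the gene lists and the role groups were chosen with earlier results of these data known, and the role groups after the values were seen. Members were named where they had the 12 highest means or the 8 largest ratios, were on a list, stood next to a threshold, or were among the 5 largest called changes each way in a comparison; others are named to complete their role group. Mitochondrially encoded genes were left out, and some genes are not reported here. Annotation was GENCODE M21 (GRCm38, 99.12% of genes matched by identifier) and promoters were from RefSeq. Deviations from the group means of same-numbered libraries correlated at 0.16 to 0.20 between P14 and P6 rods, a hint of pairing from the data alone, and at -0.41 to 0.17 elsewhere; P10 replicate 4 has no partner in P6. The fits were tested on simulated data. Alternatives covered the thresholds and libraries of the rule, the pseudocount, filter, scaling, replicate block, fold threshold, groups in the fit and each library left out.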

Additional observations from a re-analysis of the deposited data

Results flagged for a closer look

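Each gene was examined in both groups of 4 libraries, P10 and P28, for a library far from the other 3. Of 108 such groups, 9 were picked out, where chance picks about 1 in 20. Replicate 4 of P10, one of the libraries not used to choose the genes, accounted for 3. Synpr was at 23.1 CPM there and at 36.5 to 39.1 CPM in the other P10 libraries. Calb2 was at 9.16 CPM, against 26.4 to 27.4 CPM in the others. Cryab was at 10.1 CPM, against 14.0 to 14.7 CPM in the others. This library also had the lowest mitochondrial share of the P10 libraries, 3.87%, whose part was not tested.

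In P28 rods, replicate 1 stood apart for Aqp4 (3.03 CPM, against 6.34 to 6.66 CPM), Hpca (0.649 CPM, against 1.42 to 1.44 CPM) and Dio2 (0.736 CPM, against 2.92 to 3.24 CPM). Replicate 4 stood apart for Pcp2 (0.888 CPM, against 1.47 to 1.48 CPM), Nefm (1.88 CPM, against 2.00 to 2.02 CPM) and Scgn (5.15 CPM, against 2.30 to 2.39 CPM). All of these P28 values lay below the P10 and P14 libraries of the rule for the same gene.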

How the results depend on the processing

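The number of genes chosen depended most on the thresholds: 127 at 2 times, 34 at 4 times, 17 at a minimum of 30 CPM and 425 with no minimum, against 54. With P10 replicate 4 and P14 replicate 3 alone as the high libraries there were 86, of which 27 were shared. Using all P10 and P14 libraries gave 48 (43 shared), P10 alone 54 (46), P14 alone 49 (40), median-of-ratios scaling 51 (51), and rescaling without mitochondrial genes 55 (35). Leaving out 1 library of the rule gave 49 to 54. Called lower in the left-out libraries against P6 rods were 0 without P14 replicate 3 and 6 without P10 replicate 4 (2 with both). The fits of P10 replicate 4 alone (0) and P14 replicate 3 alone (6), chosen after seeing the data, repeat this. Isl1 changed sign there, with a log2 change of 0.33 without P14 replicate 3 (adjusted p = 0.402, limma) and -2.65 without P10 replicate 4. Of the 29 calls in that comparison, 14 were kept under every alternative run, as were 33 of 35 for CiPC against MEF, 19 of 23 for day 5 against MEF, 2 of 4 for day 8 against day 5, 34 of 36 for CiPC against day 8 and 33 of 39 for CiPC against P5 rods. With no fold threshold, lower calls were 7 for CiPC against MEF, 12 for day 5 against MEF and 13 for CiPC against day 8, and day 8 against day 5 had 13 higher and 9 lower. That comparison had 5 higher and 5 lower at a pseudocount of 0.1, 5 and 4 at 0.5, and 0 lower (without RI-d8 replicate 1) to 3 lower (without RI-d8 replicate 3) with 1 library left out. Same-numbered libraries of the cultured groups and P5 rods did not deviate together (0 to 2 of 6 libraries correlated best with their own number). Between P14 and P6 rods, 6 of 6 correlated best with their own number, and between P10 and P6 rods 3 of 6. With the replicate number as a block, the left-out libraries against P6 gave 22 higher and 3 lower, and the other counts were equal to those without it. The causes were not tested. The depth is unknown, so how far it limits genes near 10 CPM cannot be given.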
